A study of Mus musculus with 36 samples.

Results

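The change of the liver transcriptome in the early light phase was assessed by comparing livers taken at ZT6 with livers taken at ZT2. Zeitgeber time (ZT) counts the hours after lights on, so both samplings fell in the first part of the rest phase of these nocturnal animals. The comparison used 12 of the 36 RNA libraries of the study, chosen by their titles alone: 6 at ZT2 and 6 at ZT6, each from 3 THRB WT and 3 THRB KO mice, with genotype as a covariate. All were male C57Bl/6NCrl-background mice, 2 to 3 months old, fed normal chow ad libitum under a light-dark cycle of 12 h each. The animals labelled WT were heterozygous for the Thrbtm1Df allele (THRB+/-), and the KO animals were homozygous (THRB-/-). Thus every mouse of the comparison carried at least 1 altered *Thrb* allele, which impairs DNA binding of thyroid hormone receptor beta. The alteration was present in the whole body and not only in hepatocytes. The homozygous animals are known for raised serum thyroid hormone, while the study describes heterozygotes as similar in phenotype to mice without the allele. Each library came from 1 mouse with its own number in the labels. These numbers fell into series whose meaning is not stated, and only 1 series occurred at both ZT2 and ZT6.

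A total of 17994 of the 54532 annotated genes had at least 100 counts summed over the 36 libraries and were tested. The 12 libraries held from 29279652 to 40322624 counts, and log2 totals at ZT6 exceeded those at ZT2 by 0.0022 (exact permutation test within genotype, two-sided, p = 0.975, 400 permutations). The 10 most counted genes took 16.2% to 17.6% of a library, and mitochondrial genes 5.69% to 6.86%. Within a group no library was a repeat of another, as the chi-square of counts per gene between them lay between 33.2 and 86.9. On the first principal component, which held 19.6% of the variance, the 6 ZT2 libraries lay on one side of 0 and the 6 ZT6 libraries on the other. On the second (13.8%), the 4 libraries of letter a lay apart, with 17.3 to 38.4 against -26.7 to -4.9 for the other 8. *Thrb* itself was counted in every library (24.3 to 38.5 CPM). Counts per gene do not separate the altered exon, so its level gave no check of the genotype labels. The summed level of 11 hepatocyte markers, which include *Alb* and *Apoa1*, overlapped between ZT2 (105800 to 129800 CPM) and ZT6 (115200 to 129900 CPM). CPM values are counts scaled to library size with TMM factors.

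The hepatic clock is a transcriptional feedback loop. BMAL1 (gene *Arntl*) pairs with CLOCK or NPAS2, binds E-boxes and drives the *Per*, *Cry*, *Nr1d1*, *Nr1d2* and *Dbp* genes, while PER and CRY proteins inhibit this pair and REV-ERB alpha and beta (*Nr1d1*, *Nr1d2*) repress *Arntl* and *Npas2* through ROR elements. DBP, TEF and HLF activate, and E4BP4 (*Nfil3*) represses, genes with D-boxes, many of which encode metabolic enzymes and detoxification factors. In liver, feeding time, insulin, glucocorticoids and body temperature act on many of the same genes, and mice eat mostly in the dark.

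From ZT2 to ZT6, 1754 genes changed (adjusted p under 0.05, quasi-likelihood test of edgeR, adjusted by Benjamini-Hochberg), or 9.75% of those tested. Of these, 902 were higher (5.01%) and 852 were lower (4.73%) at ZT6. Most changes were modest, with a median absolute log2 fold change of 0.46 among the called genes. The strongest changes fell more often than they rose: 182 genes were lower by at least 2-fold against 85 that were higher. The 6 libraries of ZT6 and the 6 of ZT2 did not overlap for 1065 genes (5.92%), of which 624 (3.47%) were higher and 441 (2.45%) lower. For each of the 1754 called genes the log2 fold change had the same sign in either genotype when its libraries were fitted alone, as it did for 65.9% of all genes tested, and the calls were made on both genotypes together. Protein-coding genes were called in 11.3% of cases and long intergenic noncoding RNAs in 7.0%. The same test between neighbouring samplings called 1006 genes (5.59%) from ZT6 to ZT10, 2816 (15.6%) from ZT10 to ZT14, 724 (4.02%, 2.11% higher and 1.92% lower) from ZT14 to ZT18, 141 (0.784%) from ZT18 to ZT22 and 197 (1.09%) from ZT22 to ZT2.

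Among the 5 clock activator genes, 3 fell and none rose (60.0% called against 9.75% of all genes). *Npas2* had 7.25 to 16.5 CPM at ZT2 (median 11.9) and 0.211 to 1.34 CPM at ZT6 (median 0.389). Every ZT2 library lay above every ZT6 library, and the log2 fold change was -4.27 (SE 0.379, edgeR adjusted p = 1.9e-05). *Arntl* went from 25.2 to 34.7 CPM (median 30.5) at ZT2 to 2.57 to 6.75 CPM (median 3.76) at ZT6, again without overlap, a log2 fold change of -2.87 (SE 0.202, edgeR adjusted p = 3.1e-06). Its partner *Clock* moved far less. The *Clock* transcript had 36.4 to 40.6 CPM at ZT2 and 25.8 to 35.5 CPM at ZT6, with a log2 fold change of -0.38 (SE 0.075, edgeR adjusted p = 0.00533). *Rora*, which encodes an activator at ROR elements, had a log2 fold change of -0.12 and did not pass the test (edgeR adjusted p = 0.58).

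Of 10 clock repressors, 8 rose, *Cry1* fell and *Per2* did not pass the test. The median log2 fold change of these 10 genes was 1.92, against -0.02 over all genes tested. *Nr1d1* had 31.7 to 49.7 CPM (median 37.2) at ZT2 and 139 to 187 CPM (median 167) at ZT6. The log2 fold change over both genotypes was 2.06 (SE 0.119, edgeR adjusted p = 1.4e-06). Its 3 THRB WT libraries at ZT6 (172 to 187 CPM) lay above the 3 THRB KO libraries (139 to 163 CPM). At ZT10 the WT libraries had 47.2 to 98.2 CPM and the KO libraries 66.9 to 120 CPM. These differences between genotypes at 1 time were not tested. *Nr1d2* rose from 19.2 to 36.5 CPM (median 22.9) to 65.4 to 99.6 CPM (median 88.1), by 1.78 on the log2 scale (SE 0.143, edgeR adjusted p = 8e-06). Neither gene's ranges overlapped between the times.

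The 3 Period genes differed among themselves. *Per3* rose from 1.14 to 3.0 CPM (median 1.66) at ZT2 to 9.84 to 33.5 CPM (median 16.1) at ZT6, a log2 fold change of 3.43 (SE 0.299, edgeR adjusted p = 1.6e-05). *Per1*, which also responds directly to glucocorticoids and cyclic AMP, had 2.02 to 20.4 CPM (median 4.00) at ZT2 and 9.36 to 63.1 CPM (median 31.7) at ZT6. Its groups overlapped because of 1 KO library at ZT2 with 20.4 CPM, while the other 5 had at most 8.21. The log2 fold change of *Per1* was 2.30 (SE 0.571, edgeR adjusted p = 0.0208), and without replicate c of the KO group at ZT6 it was 2.06 (edgeR adjusted p = 0.0597). With a robust estimate of the spread *Per1* did not pass either (edgeR adjusted p = 0.0755). *Per2* had 9.81 to 14.7 CPM at ZT2 and 12.9 to 26.8 CPM at ZT6, overlapping ranges, with a log2 fold change of 0.56 (SE 0.171, edgeR adjusted p = 0.0558). It was called without replicate a or replicate b of the WT group at ZT6 (edgeR adjusted p = 0.039 and 0.0218).

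The 2 cryptochrome genes moved in opposite directions. *Cry1* fell from 16.7 to 27.5 CPM (median 20.4) to 5.07 to 7.80 CPM (median 6.89), a log2 fold change of -1.65 (SE 0.136, edgeR adjusted p = 9.9e-06). *Cry2* rose from 23.6 to 34.7 CPM (median 28.2) to 38.0 to 60.8 CPM (median 44.6), by 0.67 on the log2 scale (SE 0.112, edgeR adjusted p = 0.00192). In neither gene did the times overlap. *Ciart*, which encodes a repressor of the CLOCK-BMAL1 pair, was counted at 0.173 to 0.702 CPM at ZT2 and at 1.64 to 14.6 CPM (median 5.18) at ZT6, with a log2 fold change of 4.17 (SE 0.572, edgeR adjusted p = 0.00048). The DEC genes *Bhlhe41* and *Bhlhe40*, E-box repressors, rose by 3.91 (SE 0.368, edgeR adjusted p = 2.8e-05) and 1.15 (SE 0.212, edgeR adjusted p = 0.00384) on the log2 scale. *Bhlhe41* had 0.382 to 0.990 CPM at ZT2 and 4.22 to 18 CPM at ZT6, and *Bhlhe40* 37.2 to 83.7 and 95.8 to 178 CPM, in both cases without overlap.

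Of 7 clock output genes, 5 rose (*Dbp*, *Tef*, *Hlf*, *Usp2* and *Wee1*), *Nfil3* fell and *Tspan4* (log2 fold change 0.18, edgeR adjusted p = 0.224) did not pass the test. The share called was 85.7%, against 9.75% of all genes. *Dbp* showed the largest increase of the named set. It was counted at 0.643 to 4.73 CPM (median 0.946) at ZT2 and at 92.8 to 194 CPM (median 129) at ZT6, a log2 fold change of 6.36 (SE 0.436, edgeR adjusted p = 3.1e-06). Among the ZT2 libraries, replicate a of the WT group (4.73 CPM) and replicate a of the KO group (2.20 CPM) had the highest *Dbp* values. *Tef* rose from 30.8 to 49.6 CPM (median 34.7) to 123 to 244 CPM (median 164), by 2.26 on the log2 scale (SE 0.157, edgeR adjusted p = 3.1e-06). *Hlf*, the other gene of this family of D-box activators, rose by only 0.58 (SE 0.115, edgeR adjusted p = 0.00597), with 31.3 to 39.0 CPM at ZT2 and 35.1 to 65.8 CPM at ZT6. *Nfil3* fell from 31.0 to 63.6 CPM (median 57.9) to 14.8 to 16.4 CPM (median 15.5), a log2 fold change of -1.81 (SE 0.138, edgeR adjusted p = 5e-06). So the activators at D-boxes went up while the transcript of their competitor went down, each beyond the spread of the libraries except for *Hlf*, whose ranges overlapped.

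**Figure D1:**
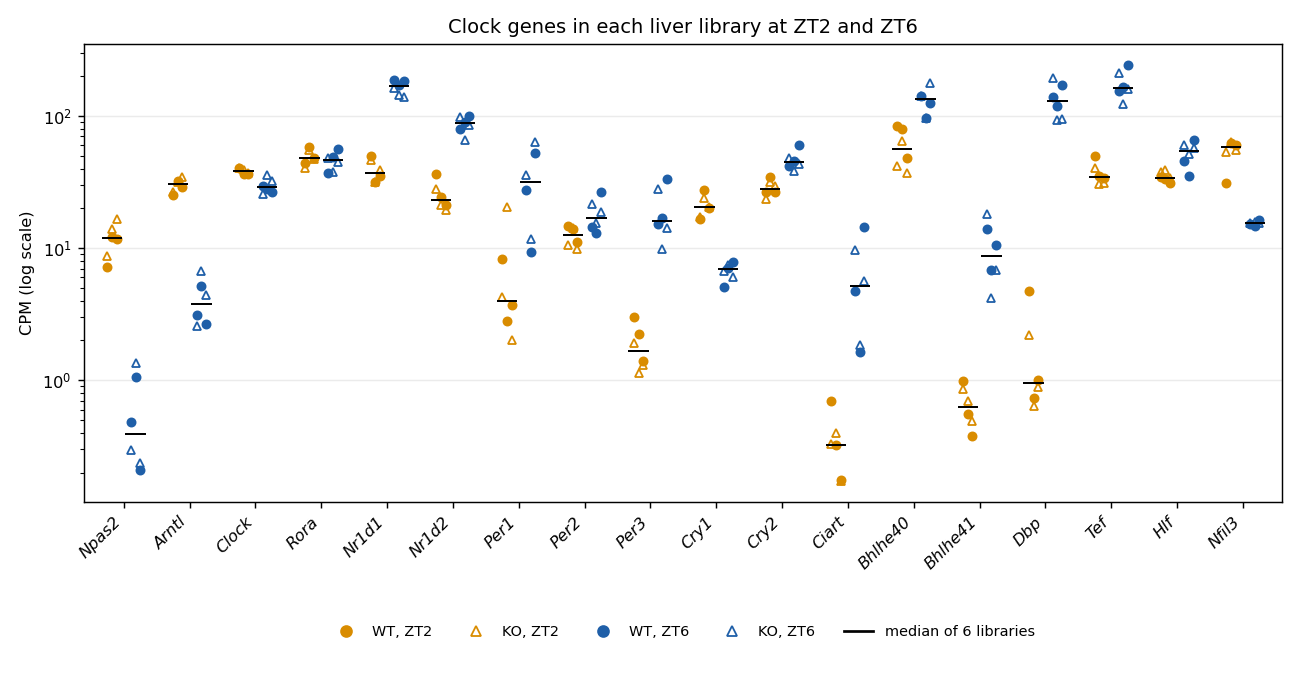
CPM (log axis) of 18 clock genes in each of the 12 libraries, orange for ZT2 and blue for ZT6, filled circles for THRB WT and open triangles for THRB KO, with a black line at the median of the 6 libraries of a time. *Npas2*, *Arntl*, *Cry1* and *Nfil3* lie lower at ZT6 and *Dbp*, *Ciart*, *Bhlhe41*, *Per3*, *Nr1d1*, *Nr1d2* and *Tef* higher, without overlap, while *Rora*, *Per1*, *Per2* and *Hlf* overlap.

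The promoters of 4 of these genes are shown because they hold the letters of the E-box or D-box next to the transcription start. RefSeq sequences of GRCm38.p6 were used, from 250 bases before to 50 bases after each start, and 32 of 37 clock or named genes had such a window. The letters searched on both strands were CACGTG for the E-box and TTATGNAA for the D-box. The lines give the 250 bases before the start on the gene's own strand, with matches in capitals. *Ciart* (chr3:95882229-95882478, minus strand) has 3 E-box matches that begin 116, 58 and 44 bases before the start, *Per3* (chr4:151044666-151044915, minus strand) has 2 D-box matches at 205 and 158 bases, *Per1* (chr11:69098699-69098948, plus strand) has 1 E-box at 166 and 1 D-box at 24 bases, and *Cry1* (chr10:85185055-85185304, minus strand) has 1 E-box at 60 bases.
Ciart: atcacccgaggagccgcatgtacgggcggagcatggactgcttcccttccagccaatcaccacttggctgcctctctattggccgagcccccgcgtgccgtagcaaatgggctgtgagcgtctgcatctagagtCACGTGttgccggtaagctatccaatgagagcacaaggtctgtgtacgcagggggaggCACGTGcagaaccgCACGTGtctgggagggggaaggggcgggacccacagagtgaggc
Per3: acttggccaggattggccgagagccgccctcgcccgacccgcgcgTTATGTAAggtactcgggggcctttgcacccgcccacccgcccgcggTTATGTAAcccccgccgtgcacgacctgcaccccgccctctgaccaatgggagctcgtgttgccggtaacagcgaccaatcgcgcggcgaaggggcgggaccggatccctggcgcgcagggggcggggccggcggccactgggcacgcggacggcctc
Per1: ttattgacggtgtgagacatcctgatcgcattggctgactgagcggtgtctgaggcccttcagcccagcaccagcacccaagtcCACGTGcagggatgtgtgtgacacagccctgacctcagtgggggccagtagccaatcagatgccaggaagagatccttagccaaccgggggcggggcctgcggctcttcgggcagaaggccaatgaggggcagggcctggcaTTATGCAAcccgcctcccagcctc
Cry1: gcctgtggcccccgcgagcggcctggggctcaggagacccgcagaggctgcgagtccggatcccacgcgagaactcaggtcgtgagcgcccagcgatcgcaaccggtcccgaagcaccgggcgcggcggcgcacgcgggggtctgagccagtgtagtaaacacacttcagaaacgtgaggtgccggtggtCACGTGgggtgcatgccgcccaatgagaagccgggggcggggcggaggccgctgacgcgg

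Thus a promoter with an E-box match belonged to genes that rose (*Ciart*, *Per1*) and to 1 that fell (*Cry1*). *Tspan4*, which did not pass the test, had 1 E-box match at 51 bases, and *Lnx1*, which rose, had 1 at 227 bases. *Per1* and *Tspan4* each had another window without a match. *Bhlhe41* and *Tef* also had 1 E-box match in each of their windows, while *Dbp*, *Nr1d1*, *Nr1d2* and *Cry2* had none of the letters in the window searched. E-box letters were present in 7.15% of all 32851 windows. Counted per gene with at least 1 window, they were present for 11.04% of 11991 tested genes, for 16.26% of 689 genes higher at ZT6 and for 11.45% of 620 genes lower at ZT6. Among genes that rose by at least 2-fold the share was 34.55% (19 of 55), and among genes that fell by at least 2-fold it was 6.67% (7 of 105). D-box letters were found in 3.38% of all windows, for 2.77% of the tested genes for 7.27% (4 of 55) of the genes higher by at least 2-fold and for 3.81% (4 of 105) of those lower by at least 2-fold. These shares are descriptions and were not tested. Letters of the REV-ERB and ROR element occurred in 0.22% of the windows, 1 of them a window of *Arntl*, with the match 27 bases after the start.

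The largest changes were sought among called genes whose 2 times did not overlap and whose mean reached 50 counts. Apart from the clock genes above, the strongest increases were in *Rgs16*, *Usp2*, *Lnx1*, *Wee1*, *Trib3* and the little characterized transcripts *Gm10804* and *A930033H14Rik*. *Rgs16*, a brake on G-protein signalling, went from 0.351 to 8.21 CPM (median 4.90) at ZT2 to 24.1 to 155 CPM (median 71.1) at ZT6. Its log2 fold change was 4.05 (SE 0.588, edgeR adjusted p = 0.0007). *Usp2*, a ubiquitin protease with clock proteins among its substrates, rose from 1.62 to 4.15 CPM (median 2.67) to 6.77 to 37.2 CPM (median 14.9), by 2.87 on the log2 scale (SE 0.382, edgeR adjusted p = 0.00035). *Wee1*, the kinase that holds back entry into mitosis, had 1.54 to 3.02 CPM at ZT2 and 5.13 to 19.8 CPM at ZT6 (log2 fold change 2.21, SE 0.311, edgeR adjusted p = 0.00057). *Trib3*, a pseudokinase that binds AKT and responds to endoplasmic reticulum stress, had 2.70 to 6.22 CPM at ZT2 and 11.8 to 33.8 CPM at ZT6 (log2 fold change 2.08, SE 0.205, edgeR adjusted p = 4e-05). *Lnx1*, a ubiquitin ligase gene, ranged from 0.0293 to 1.41 CPM at ZT2 and from 2.69 to 8.98 CPM at ZT6 (log2 fold change 2.61, edgeR adjusted p = 0.00403). In *Rgs16* and *Usp2* the highest ZT6 library exceeded the lowest by more than 5-fold. That none reached down to the ZT2 range follows from the rule, which admitted only genes without overlap.

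The largest decreases apart from *Npas2* and *Arntl* were in *Slc34a2*, *Cdkn1a*, *Clic3*, *Loxl4*, *Pitx3*, *Tubb2b*, *Ppard*, *Pdk4*, *Chka* and *Dnmt3b*, with log2 fold changes from -3.55 to -1.97. *Slc34a2*, a sodium-dependent phosphate transporter, fell from 2.41 to 5.49 CPM (median 3.54) to 0.0897 to 0.618 CPM (median 0.261), a log2 fold change of -3.55 (SE 0.342, edgeR adjusted p = 3.4e-05). *Cdkn1a*, the cell cycle inhibitor p21, had 9.96 to 32.9 CPM (median 12.3) at ZT2 and 0.658 to 3.12 CPM (median 1.87) at ZT6. Its log2 fold change was -3.12 (SE 0.383, edgeR adjusted p = 0.00019). *Clic3*, of the chloride intracellular channel family, went from 9.89 to 34.5 CPM to 1.88 to 4.04 CPM (log2 fold change -3.06, SE 0.217, edgeR adjusted p = 3.1e-06). *Loxl4*, a lysyl oxidase-like enzyme of collagen crosslinking, had 4.04 to 16.7 CPM at ZT2 and 0.890 to 2.04 CPM at ZT6, and *Pitx3*, a homeobox transcription factor, 9.87 to 24.6 and 1.02 to 5.58 CPM. *Ppard*, the nuclear receptor PPAR delta, fell from 20.5 to 74.4 CPM (median 61.4) to 7.96 to 11 CPM (median 8.99), a log2 fold change of -2.58 (SE 0.264, edgeR adjusted p = 4.8e-05). *Chka*, choline kinase alpha, which starts phosphatidylcholine synthesis from choline, went from 86.8 to 181 CPM to 21.6 to 51.2 CPM (log2 fold change -2.02, SE 0.212, edgeR adjusted p = 6.3e-05).

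**Figure D2:**
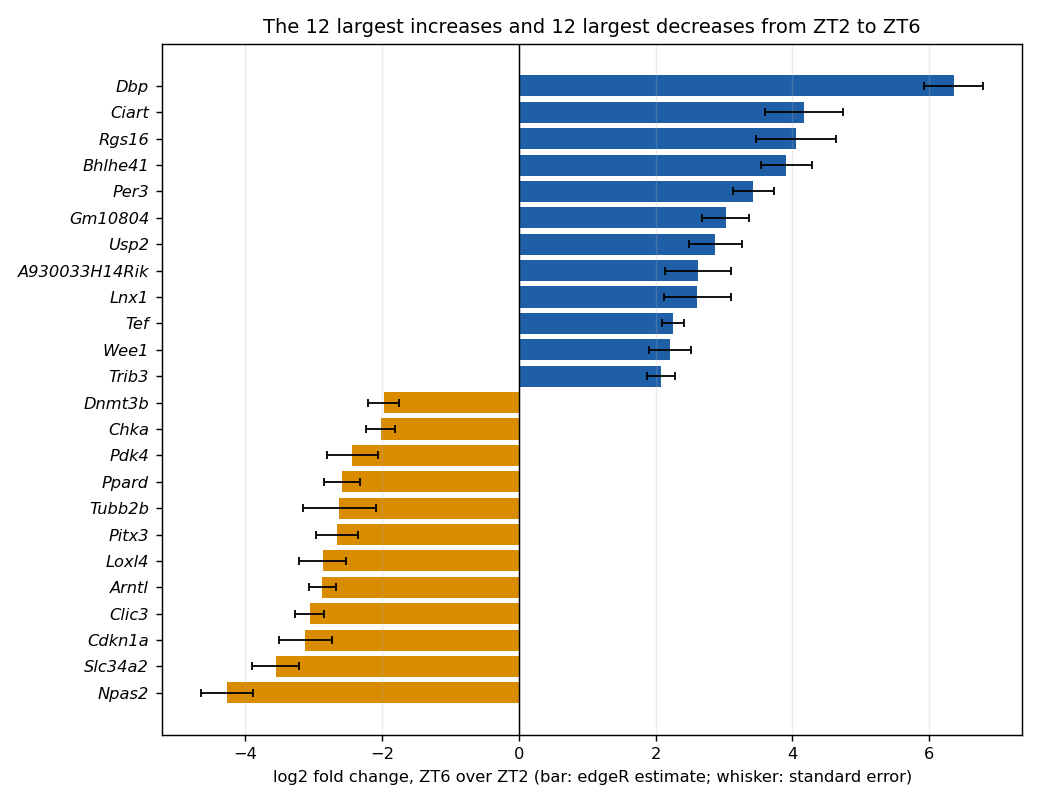
Log2 fold change of ZT6 over ZT2 for the 12 genes with the largest increase (blue) and the 12 with the largest decrease (orange) under the rule on adjusted p, counts and overlap, with whiskers for the standard error of the edgeR fit. *Dbp* stands at 6.36 and *Npas2* at -4.27, and 7 of the 12 increases are members of the clock lists, *Usp2* and *Wee1* among the output factors included.

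Genes of the unfolded protein response (UPR) encode chaperones and degradation factors of the endoplasmic reticulum, where the liver folds its plasma proteins. Of 35 members tested, 14 fell and 2 rose, which is 45.7% called against 9.75% of all genes. The median log2 fold change was -0.26. *Sdf2l1*, a cofactor of the chaperone BiP, fell from 38.5 to 68.7 CPM (median 59.6) to 15.9 to 36.4 CPM (median 20.6), a log2 fold change of -1.34 (SE 0.197, edgeR adjusted p = 0.00075). *Manf*, a secreted factor of stressed endoplasmic reticulum, had 76.5 to 169 CPM (median 144) at ZT2 and 42.0 to 69.4 CPM (median 53.7) at ZT6, a log2 fold change of -1.33 (SE 0.17, edgeR adjusted p = 0.00026). *Creld2* was lower (log2 fold change -1.30, SE 0.271, edgeR adjusted p = 0.00777), with overlapping ranges. BiP itself (*Hspa5*) went from 599 to 1274 CPM (median 934) to 441 to 551 CPM (median 467), a log2 fold change of -0.94 (SE 0.153, edgeR adjusted p = 0.00157). The size of these falls depended on the libraries used. Over all alternative fits, some of 6 libraries, the smallest fall was -0.90 for *Sdf2l1* and -0.85 for *Manf*. For *Creld2* it was -0.33 and for *Hspa5* -0.44. The 2 members that rose were *Trib3* and *Herpud1*, a factor of endoplasmic reticulum-associated degradation. *Herpud1* had 146 to 332 CPM at ZT2 and 282 to 495 CPM at ZT6 (log2 fold change 0.66, edgeR adjusted p = 0.0378), a call lost in 7 of the 12 fits that left out 1 library (edgeR adjusted p up to 0.0933). *Xbp1* (log2 fold change -0.06) and *Ddit3* (-0.20), which encode transcription factors of this response, did not pass the test (edgeR adjusted p = 0.872 and 0.398).

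Heat shock genes moved the same way as the UPR genes where they moved. Of 23 tested, 7 fell and none rose (30.4% against 9.75% of all genes, median log2 fold change -0.28). *Hsp90aa1*, the inducible cytosolic HSP90, had 127 to 247.3 CPM (median 201) at ZT2 and 94.3 to 113 CPM (median 101) at ZT6, a log2 fold change of -0.91 (SE 0.153, edgeR adjusted p = 0.00202). *Hsph1* (-0.97, edgeR adjusted p = 0.0171), *Hspb1* (-0.64, edgeR adjusted p = 0.00914) and the cochaperone *Stip1* (-0.52, edgeR adjusted p = 0.00293) were also lower. Over all alternative fits, some of 6 libraries, the smallest fall was -0.31 for *Hsp90aa1* and -0.15 for *Hsph1*. For *Hspb1* it was -0.46 and for *Stip1* -0.23. *Hspa8* had a log2 fold change of -0.32 (edgeR adjusted p = 0.377). The nearly identical genes *Hspa1a* and *Hspa1b*, between which reads may be split, had -0.37 and -0.54 (edgeR adjusted p = 0.683 and 0.296), and *Hspa1b* was called without replicate c of the KO group at ZT2 (edgeR adjusted p = 0.0429). Of 6 RNA-binding protein genes induced by mild cold, *Rbm3* was called higher by 0.29 (edgeR adjusted p = 0.0415), a call lost in 9 of the 12 fits without 1 library (edgeR adjusted p up to 0.0869). *Cirbp* had 26.8 to 56.9 CPM at ZT2 and 26.4 to 48.4 CPM at ZT6, with no change detectable (log2 fold change 0.06, SE 0.186, edgeR adjusted p = 0.884).

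Among 32 PPAR alpha target and ketogenesis genes, which serve fatty acid oxidation in fasting, 9 rose and 1 fell (31.2% against 9.75% of all genes). The median log2 fold change was 0.23. Most of these rises were small. *Cpt1a*, the gate of fatty acid entry into mitochondria, rose from 165 to 226 CPM (median 186) to 289 to 378 CPM (median 312), by 0.78 on the log2 scale (SE 0.072, edgeR adjusted p = 2.4e-05). *Ppara* itself rose by 0.61 (SE 0.146, edgeR adjusted p = 0.017). *Fgf21*, the fasting hormone of the liver, had 1.21 to 2.36 CPM (median 1.52) at ZT2 and 2.13 to 30.9 CPM (median 7.31) at ZT6, a log2 fold change of 2.71 (SE 0.545, edgeR adjusted p = 0.0063). Its 6 ZT6 values spread over more than 10-fold and 1 of them lay within the ZT2 range. The member that fell was *Pdk4*, a kinase that shuts off pyruvate dehydrogenase. It had 5.85 to 28.1 CPM (median 21.1) at ZT2 and 1.79 to 5.24 CPM (median 3.08) at ZT6, a log2 fold change of -2.43 (SE 0.374, edgeR adjusted p = 0.00111). *Cyp4a10* and *Cyp4a14*, related P450 genes often used as readouts of PPAR alpha, did not pass (log2 fold changes 0.40 and 0.72, edgeR adjusted p = 0.478 and 0.309).

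Of 34 genes named in the study's text, most of them for lipid handling, 7 were higher, 1 was lower and 26 did not pass the test (23.5% called against 9.75% of all genes), with a median log2 fold change of 0.06. The study picked most of these genes from the same 36 libraries, among genes found rhythmic in at least 1 genotype. A share above that of all genes thus partly follows from that choice. Besides *Cpt1a*, the higher ones included *Npc1*, which exports cholesterol from lysosomes (0.71, edgeR adjusted p = 0.00307), the acyl-CoA thioesterase *Acot12* (0.44, edgeR adjusted p = 0.00017), the peroxisomal thiolase *Acaa1a* (0.39, edgeR adjusted p = 0.00499), the peroxisomal transporter *Abcd2* (1.02, edgeR adjusted p = 0.0296) and the fatty acid transporter and acyl-CoA synthetase *Slc27a2* (0.33, edgeR adjusted p = 0.0361). The calls of *Abcd2* and *Slc27a2* were each lost in 7 of the 12 fits without 1 library, with edgeR adjusted p up to 0.0692 and 0.0908. The lower one was the acyltransferase *Acnat2* (-1.80, edgeR adjusted p = 0.00204).

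Few gluconeogenic genes passed the test. Of 20 fasting and gluconeogenesis genes, 2 rose and none fell, which at 10% is near the share of all genes. These were *Slc37a4*, the glucose-6-phosphate transporter (0.37, edgeR adjusted p = 0.00942), and *Crtc2*, a coactivator of CREB (0.20, edgeR adjusted p = 0.0302), a call lost in 6 of the 12 fits without 1 library (edgeR adjusted p up to 0.073). *Pck1*, which commits carbon to glucose synthesis, had 487 to 2416 CPM (median 1352) at ZT2 and 1047 to 2546 CPM (median 2302) at ZT6, with wide and overlapping ranges (log2 fold change 0.69, SE 0.31, edgeR adjusted p = 0.194). Without replicate b of the KO group at ZT2 it was called, with 1.14 (edgeR adjusted p = 0.00738), while over the other 11 fits without 1 library it was not. *G6pc* (-0.72), *Igfbp1* (-0.17) and *Irs2* (-0.26) did not pass either (edgeR adjusted p = 0.167, 0.911 and 0.764).

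In glycogen and glucose metabolism the called genes were split, with 3 higher and 2 lower of 18 (27.8% against 9.75% of all genes). *Gys2*, the liver glycogen synthase, rose from 94.9 to 120 CPM (median 103) to 137 to 282 CPM (median 204), by 0.96 (SE 0.13, edgeR adjusted p = 0.00042), and *Ugp2*, which makes its substrate UDP-glucose, by 0.67 (SE 0.115, edgeR adjusted p = 0.00251). The other rise was in *Slc2a2*, the glucose transporter GLUT2. The glycogen-targeting subunits of protein phosphatase 1 moved the other way. *Ppp1r3c* fell by 0.90 (SE 0.168, edgeR adjusted p = 0.00409), and *Ppp1r3b* had 206 to 439 CPM (median 340) at ZT2 and 61.6 to 327 CPM (median 112) at ZT6 (log2 fold change -1.28, SE 0.369, edgeR adjusted p = 0.0417). The call of *Ppp1r3b* was lost in 9 of the 12 fits without 1 library, with edgeR adjusted p up to 0.093.

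Cholesterol genes divided into synthesis and export. Of 30 members, 7 fell and 2 rose (30% against 9.75% of all genes, median log2 fold change -0.24). The 7 that fell encode enzymes or regulators of sterol synthesis, such as *Mvd*, mevalonate diphosphate decarboxylase, and *Insig1*, a sterol sensor that retains the SREBP complex. *Mvd* had 34.4 to 71.2 CPM (median 60.2) at ZT2 and 12.7 to 34.6 CPM (median 26.8) at ZT6, with ranges that just met (log2 fold change -1.08, SE 0.231, edgeR adjusted p = 0.00925). *Insig1* went from 330 to 801 CPM (median 670) to 260 to 492 CPM (median 279), a log2 fold change of -0.93 (SE 0.234, edgeR adjusted p = 0.0217). Its adjusted p in the edgeR fit was 0.0586 without replicate c of the WT group at ZT2 and 0.0566 without replicate a of the KO group at ZT6. The 2 that rose encode the partners of the sterol exporter ABCG5/ABCG8. *Abcg8* had 64.0 to 79.6 CPM (median 72.3) at ZT2 and 119 to 184 CPM (median 137) at ZT6, a log2 fold change of 0.99 (SE 0.086, edgeR adjusted p = 1.6e-05), and *Abcg5*, its neighbour on the chromosome, 0.95 (SE 0.088, edgeR adjusted p = 2.5e-05). *Sqle* (-0.53) missed the threshold (edgeR adjusted p = 0.109) but passed without replicate a of the KO group at ZT2 (edgeR adjusted p = 0.0469). Leaving out 1 library moved the number of members called lower between 4 and 12.

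Lipogenic genes gave 3 calls in each direction among 25 (median log2 fold change -0.18). *Elovl3*, an elongase of very long fatty acids, fell from 420 to 846 CPM (median 594) to 75.7 to 277 CPM (median 159), a log2 fold change of -1.88 (SE 0.235, edgeR adjusted p = 0.00022). *Acacb*, the acetyl-CoA carboxylase at mitochondria, was lower (log2 fold change -0.79, edgeR adjusted p = 0.0287), a call lost in 9 of the 12 fits without 1 library (edgeR adjusted p up to 0.083). The rises were in *Lpin2*, a phosphatidate phosphatase (0.73, edgeR adjusted p = 0.0124), and in *Pnpla2*, the triglyceride lipase of lipid droplets, which this list also held (0.68, SE 0.068, edgeR adjusted p = 4.2e-05). *Fasn* (-0.69), *Acly* (-0.69), *Srebf1* (-0.19) and *Scd1* (-0.11) did not pass (edgeR adjusted p = 0.118, 0.0905, 0.627 and 0.806). *Acly* passed without replicate a of the WT or of the KO group at ZT2 (edgeR adjusted p = 0.026 and 0.0439), and *Srebf1* without replicate c of the WT group at ZT6 (edgeR adjusted p = 0.024).

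Of 25 bile acid genes, 5 rose and 2 fell (28.0% against 9.75% of all genes, median log2 fold change 0.06). The 5 that rose are transporters, among them *Slco1a4* (0.89, edgeR adjusted p = 0.0103) and *Abcc3* (0.47, edgeR adjusted p = 0.0148). *Cyp8b1*, the 12-hydroxylase that sets the share of cholic acid, had 428 to 562 CPM (median 486) at ZT2 and 151 to 349 CPM (median 273) at ZT6, a log2 fold change of -0.91 (SE 0.148, edgeR adjusted p = 0.00162). *Hsd3b7*, an early enzyme of the pathway, was lower (log2 fold change -1.16, edgeR adjusted p = 0.0378), a call lost in 9 of the 12 fits without 1 library (edgeR adjusted p up to 0.0861). Its annotated exons share 62.4% of their bases with a gene on the opposite strand, whose reads these libraries cannot separate. *Cyp7a1*, the rate-limiting enzyme of bile acid synthesis, had 24.3 to 101 CPM at ZT2 and 21.4 to 116 CPM at ZT6 (log2 fold change 0.30, SE 0.304, edgeR adjusted p = 0.615).

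**Figure D3:**
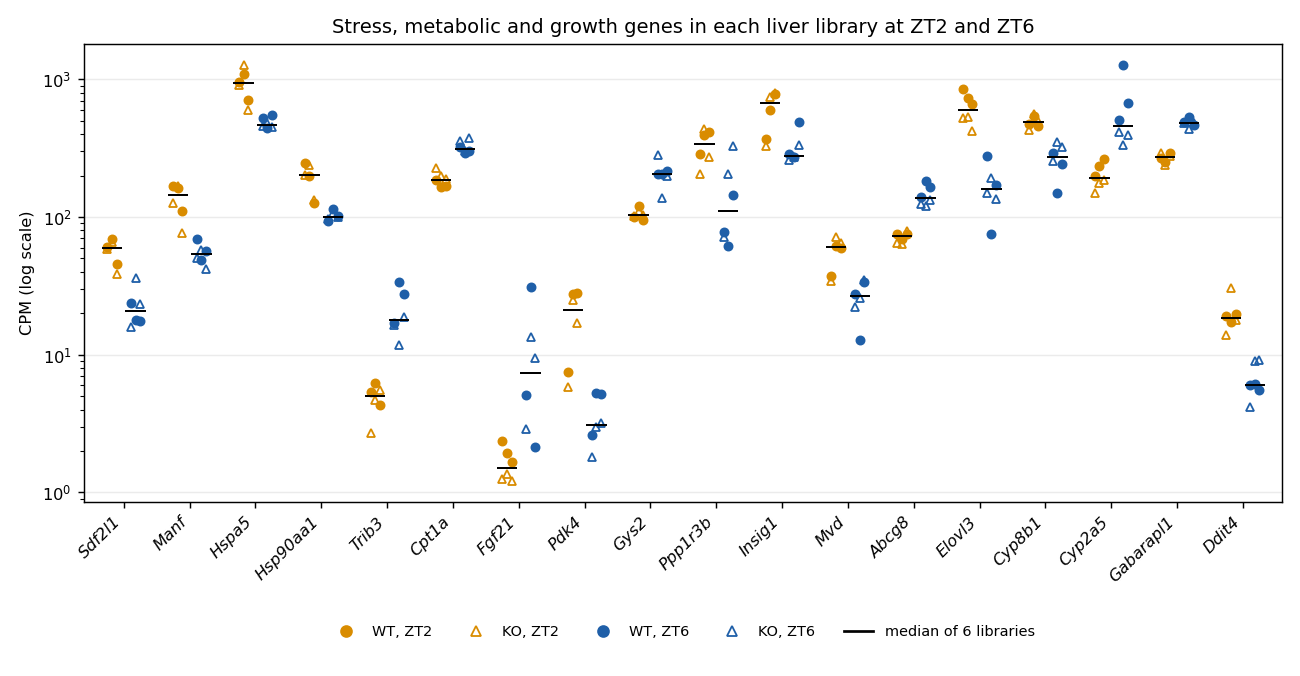
CPM (log axis) of 18 stress, metabolic and growth genes in each of the 12 libraries, orange for ZT2 and blue for ZT6, filled circles for THRB WT and open triangles for THRB KO, with a black line at the median of the 6 libraries of a time. *Sdf2l1*, *Manf*, *Hspa5*, *Hsp90aa1*, *Pdk4*, *Elovl3*, *Cyp8b1* and *Ddit4* lie lower at ZT6 and *Trib3*, *Cpt1a*, *Gys2*, *Abcg8*, *Cyp2a5* and *Gabarapl1* higher, without overlap, while *Fgf21*, *Ppp1r3b*, *Insig1* and *Mvd* overlap.

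Autophagy genes rose where they moved, 5 of 30 with none lower (16.7% against 9.75% of all genes). *Gabarapl1*, an ATG8 protein of the autophagosome, went from 240 to 292 CPM (median 271) to 438 to 536 CPM (median 482), by 0.83 on the log2 scale (SE 0.067, edgeR adjusted p = 8e-06). The mitophagy receptor *Bnip3* (0.78, SE 0.086, edgeR adjusted p = 9.9e-05) and the initiating kinase *Ulk1* (0.68, SE 0.117, edgeR adjusted p = 0.00231) rose as well. *Gabarapl1* and *Bnip3* share 28.3% and 22.3% of their exon bases with genes on the opposite strand, whose reads cannot be told apart here. Of 22 genes of translation and mTOR signalling, 6 rose and 1 fell (31.8%). *Mtor*, the kinase itself, had 31.8 to 34.0 CPM (median 32.7) at ZT2 and 38.2 to 51.3 CPM (median 41.2) at ZT6, a small rise of 0.36 (SE 0.071, edgeR adjusted p = 0.00569). *Ddit4*, an inhibitor of the mTOR complex, fell from 14 to 30.3 CPM (median 18.4) to 4.16 to 9.13 CPM (median 6.07), a log2 fold change of -1.58 (SE 0.199, edgeR adjusted p = 0.00024). *Eif4b* and *Eif4ebp2*, which act in cap-dependent initiation, rose by 0.35 and 0.33 (edgeR adjusted p = 0.00847 and 0.00576). Of 30 ribosome biogenesis genes, 3 fell and none rose, which at 10% is near the 9.75% of all genes. Leaving out 1 library moved the number called between 2 and 6. The largest change was in *Polr1e*, a subunit of RNA polymerase I (-0.55, SE 0.099, edgeR adjusted p = 0.00338). Insulin signalling genes gave 4 rises of 21 (19.0%, against 9.75% of all genes). These were *Trib3*, *Insr* (0.27, edgeR adjusted p = 0.00818), *Grb14* (0.24, edgeR adjusted p = 0.0176) and *Pik3ca* (0.30, edgeR adjusted p = 0.026). The call of *Pik3ca* was lost in 4 of the 12 fits without 1 library (edgeR adjusted p up to 0.068).

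Among 30 cell cycle genes 3 rose and 3 fell (20% against 9.75% of all genes). Besides the rise of *Wee1* and the fall of *Cdkn1a*, *Ccne1*, cyclin E1, rose from 0.289 to 1.02 CPM (median 0.572) to 1.08 to 2.03 CPM (median 1.59), by 1.44 (SE 0.294, edgeR adjusted p = 0.0067). Of 24 immediate early genes, 3 rose and 2 fell (20.8%). *Maff*, a small MAF transcription factor, rose from 1.91 to 2.40 CPM (median 2.06) to 3.12 to 12.7 CPM (median 7.55), by 1.81 (SE 0.245, edgeR adjusted p = 0.00041), *Nr4a2* by 0.96 (edgeR adjusted p = 0.0148) and *Junb* by 0.72 (edgeR adjusted p = 0.00566), while *Btg2*, an antiproliferative factor, fell by 1.03 (edgeR adjusted p = 0.00151). *Fos*, *Jun* and *Egr1* had log2 fold changes of -0.43, -0.19 and -0.18 and did not pass (edgeR adjusted p = 0.72, 0.642 and 0.876). Of 16 genes known to respond to glucocorticoids, 2 rose (*Per1* and *Klf9*) and 2 fell (*Cdkn1a* and *Ddit4*). *Klf9*, also a thyroid hormone target, rose by 0.40 (SE 0.088, edgeR adjusted p = 0.0111).

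Of 35 genes of xenobiotic receptors, P450 enzymes and conjugation, 3 rose and 1 fell (11.4%, near the 9.75% of all genes). *Cyp2a5*, which oxidizes coumarin and nicotine, had 149 to 262 CPM (median 193) at ZT2 and 335 to 1263 CPM (median 460) at ZT6, a log2 fold change of 1.48 (SE 0.197, edgeR adjusted p = 0.00035). *Nr1i3*, the xenobiotic receptor CAR, rose by 0.62 (SE 0.117, edgeR adjusted p = 0.00445), but 74.9% of its annotated exon bases are shared with the oppositely oriented *Tomm40l*. The CAR target *Cyp2b10* varied from 1.13 to 15 CPM at ZT6 and from 1.5 to 8.51 CPM at ZT2 (log2 fold change 0.03, edgeR adjusted p = 0.986), and *Cyp3a11* had a log2 fold change of 0.15 (edgeR adjusted p = 0.674). Of 12 heme genes 2 rose and 1 fell. *Por*, the P450 reductase, rose from 118 to 179 CPM (median 147) to 232 to 369 CPM (median 283), by 0.93 (SE 0.104, edgeR adjusted p = 1e-04). *Alas1*, which starts heme synthesis, had 44.7 to 328 CPM (median 100) at ZT2 and 148 to 641 CPM (median 186) at ZT6, and its log2 fold change of 1.19 (SE 0.499) did not pass (edgeR adjusted p = 0.162). Without replicate a of the KO group at ZT2 it was 1.75 and passed (edgeR adjusted p = 0.0376).

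NAD genes and sirtuins gave 3 rises and 3 falls of 23 (26.1% called against 9.75% of all genes). *Nnmt*, which methylates nicotinamide, fell from 45.3 to 121 CPM (median 56.1) to 23.8 to 42.3 CPM (median 33.8), a log2 fold change of -1.12 (SE 0.252, edgeR adjusted p = 0.0124), and *Acmsd*, which diverts tryptophan carbon from NAD, a log2 fold change of -0.97 (SE 0.138, edgeR adjusted p = 0.00064). *Nampt*, the rate-limiting enzyme of NAD salvage, was called higher by 0.57 (edgeR adjusted p = 0.0383), a call lost in 9 of the 12 fits without 1 library (edgeR adjusted p up to 0.0905), and *Sirt1* had 0.17 (edgeR adjusted p = 0.268). Of 30 urea cycle and amino acid genes, 1 rose and 3 fell (13.3%, against 9.75% of all genes). *Bhmt*, which remethylates homocysteine with betaine, fell from 2136 to 2865 CPM (median 2498) to 1098 to 1818 CPM (median 1224), a log2 fold change of -0.93 (SE 0.118, edgeR adjusted p = 0.00024).

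Of 25 thyroid hormone receptor, carrier and target genes, 3 rose and 1 fell (16.0% against 9.75% of all genes). Besides *Klf9* these were *Rxra*, the common partner of nuclear receptors (0.30, edgeR adjusted p = 0.00406), the bile acid carrier *Slc10a1* (0.32, edgeR adjusted p = 0.00845) and the corepressor *Hr* (-0.94, edgeR adjusted p = 0.0279), a call lost in 6 of the 12 fits without 1 library (edgeR adjusted p up to 0.0683). *Thrb* (-0.02), *Thra* (0.17), the deiodinase *Dio1* (0.14) and *Thrsp* (-0.43) did not pass (edgeR adjusted p = 0.941, 0.454, 0.786 and 0.389). Antioxidant genes (1 of 22, *Gclm*), acute phase proteins (1 of 24, *Itih3*) and growth hormone and sex-biased genes (2 of 25, *Stat5a* and *Elovl3*) were called in 4.5%, 4.2% and 8.0% of cases, all below the share of all genes.

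**Figure D4:**
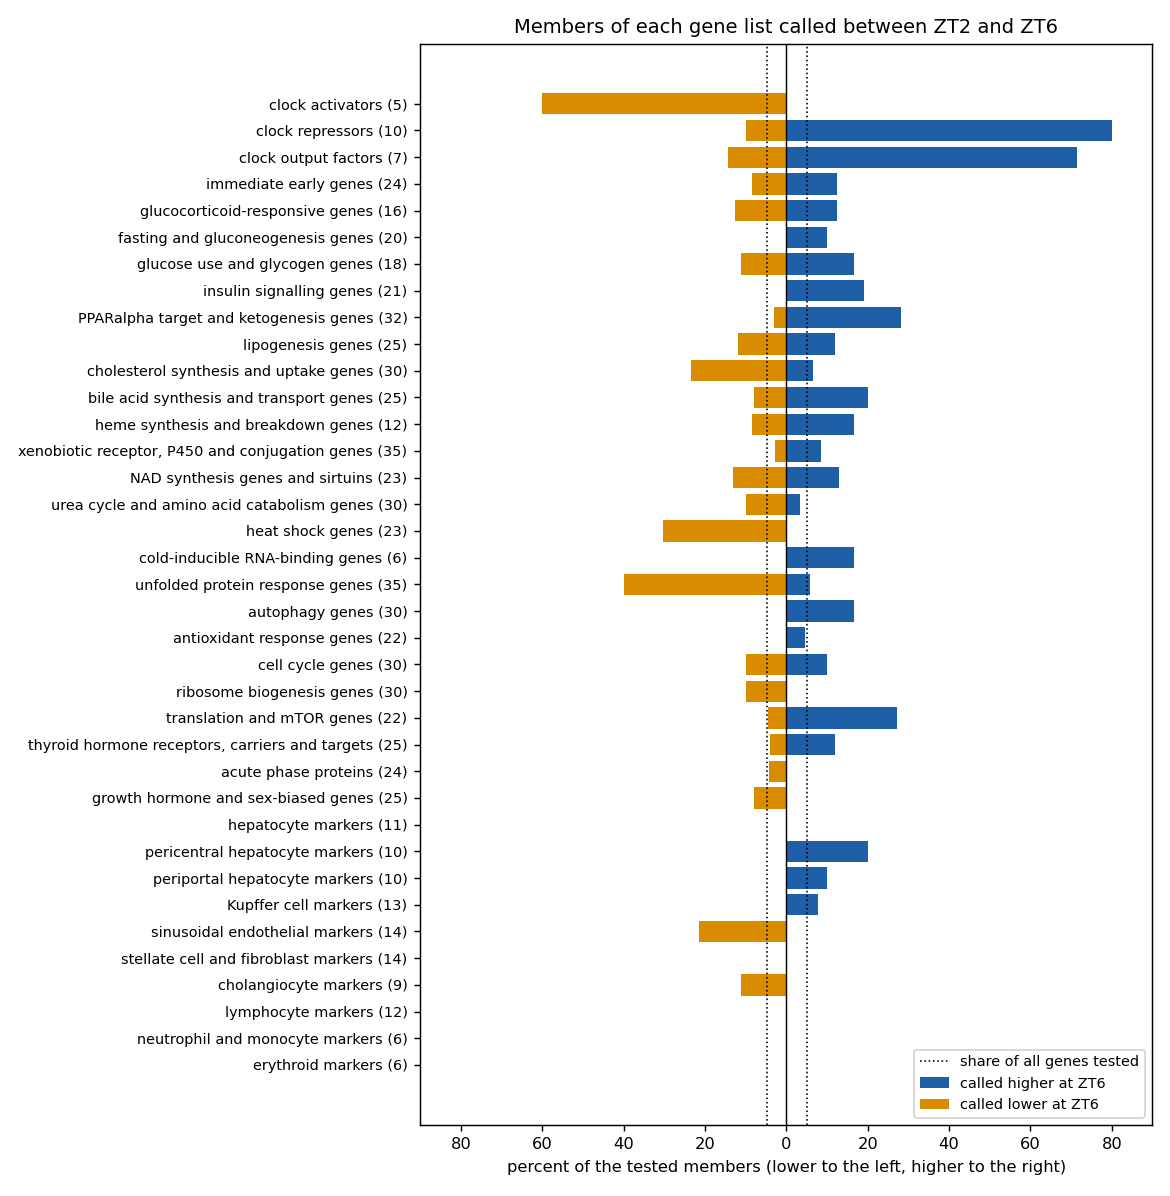
Percent of the tested members of each gene list (number tested in parentheses) called higher at ZT6 (blue, to the right) or lower (orange, to the left), with dotted lines at the shares of all genes tested, 5.01% and 4.73%. Clock repressors reach 80% and clock output factors 71.4% to the right, and UPR genes 40.0% and heat shock genes 30.4% to the left.

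In bulk liver a lower value can mean fewer cells of a type or less RNA per cell, and these cannot be told apart. None of the 11 hepatocyte markers was called (0.0% against 9.75% of all genes). Of 10 pericentral hepatocyte markers 2 rose, *Cyp2e1* and *Slc1a2*, and the summed level of the list went from 6187 to 7504 CPM at ZT2 to 8713 to 9735 CPM at ZT6 without overlap. Much of this sum was *Cyp2e1*, with 3132 to 4457 CPM at ZT2 and 5427 to 6100 CPM at ZT6 (log2 fold change 0.59, SE 0.076, edgeR adjusted p = 0.00029), while *Glul*, the marker of the innermost pericentral cells, had 0.14 (edgeR adjusted p = 0.456). Periportal markers summed to 9072 to 11510 CPM at ZT2 and 8590 to 12280 CPM at ZT6, with 1 of 10 called, *Hsd17b13* (0.55). Of 14 sinusoidal endothelial markers 3 fell and none rose (21.4%). These were *Gpr182* (-0.50, edgeR adjusted p = 0.0476), *Clec4g* (-0.36, edgeR adjusted p = 0.0334) and *Stab2* (-0.29, edgeR adjusted p = 0.0357). All 3 calls were lost in at least 7 of the 12 fits without 1 library, and the summed endothelial level of 305 to 382 CPM at ZT2 overlapped 209 to 361 CPM at ZT6. Kupffer cell markers summed to 389 to 699 CPM at ZT2 and 464 to 690 CPM at ZT6. Of the 13, 1 was called (7.7%), the iron exporter *Slc40a1* (0.76, edgeR adjusted p = 1e-04), which other liver cells also express. It was the single Kupffer marker with a log2 fold change above 0, and the median of the 13 was -0.29. Of 9 cholangiocyte markers 1 was called (11.1%), the transcription factor *Sox9*. It had 7.12 to 11.9 CPM at ZT2 and 2.24 to 4.00 CPM at ZT6 (log2 fold change -1.41, SE 0.168, edgeR adjusted p = 0.00016). The summed levels of the cholangiocyte list overlapped (43.6 to 66.2 and 37.8 to 70.9 CPM). None of the 14 stellate cell, 12 lymphocyte, 6 neutrophil and monocyte and 6 erythroid markers was called, and their sums overlapped between the times: 457 to 655 and 258 to 515 CPM, 4.92 to 8.94 and 5.44 to 9.54 CPM, 3.44 to 7.34 and 3.77 to 5.59 CPM, and 198 to 575 and 184 to 553 CPM. Of 10 adipose and pancreas markers, 9 were too low to be tested and the other was not called. Among the markers of cells other than hepatocytes, 1 of 14 endothelial (median log2 fold change -0.32), 1 of 14 stellate (-0.28), 1 of 13 Kupffer (-0.29) and 1 of 6 neutrophil and monocyte markers (-0.29) had a value above 0, against a median of -0.02 over all genes tested. The medians were -0.16 for erythroid, -0.05 for cholangiocyte and 0.12 for lymphocyte markers. The part of these shifts and of cell composition in the results above was not tested.

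Whether the early light step differed between the genotypes was tested by the genotype by time term. None of the 17994 genes (0.0%) passed the quasi-likelihood test of edgeR after adjustment, while 646 had an unadjusted p under 0.05, and DESeq2 called 3. The 5 genes with the smallest p and at least 50 counts on average were *Cdh1*, *Cyp2c40*, *Sgsh*, *Col15a1* and *Tmie*, each with an edgeR adjusted p of 0.999. *Cyp2c40*, of a P450 family whose members share sequence, had a step of -2.73 in the THRB WT livers and of 0.32 in the others. For 6 clock genes the separate steps were as follows. *Dbp* rose by 6.06 with the THRB WT label and by 6.69 with the KO label, *Nr1d1* by 2.20 and 1.92, *Per3* by 3.29 and 3.57, and *Npas2* changed by -4.17 and -4.36, *Arntl* by -2.98 and -2.77 and *Cry1* by -1.70 and -1.61. The steps lay farther apart for *Bhlhe40*, with 0.78 and 1.52, and for *Per1*, with 2.60 and 2.03 (unadjusted p of the genotype by time term in edgeR = 0.074 and 0.62, adjusted p = 0.999 for both). With 3 mice per group, a difference between genotypes was not detectable for these genes, which does not show that the steps were alike. These separate values come from fits of 6 libraries each.

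The early light step was set against the early dark step, ZT18 minus ZT14, which shares no library with it. The 2 steps differed for 3326 genes (18.5%), 1780 (9.89%) with the larger value in the light and 1546 (8.59%) with the smaller. The genes with the smallest adjusted p included *Dbp*, *Tef*, *Arntl* and *Nr1d1*, and each of these 4 moved in opposite directions in the 2 steps. *Dbp* rose by 6.36 in the light and fell by 2.20 in the dark, and *Nr1d1* rose by 2.06 and fell by 2.35. *Arntl* changed by -2.87 in the light and by 1.62 in the dark. Of the 902 genes that rose from ZT2 to ZT6, 149 fell from ZT14 to ZT18 (16.5% of the former and 43.2% of the 345 that fell in the dark) and 4 rose. Of the 852 that fell from ZT2 to ZT6, 168 rose from ZT14 to ZT18 (19.7% and 44.3% of 379) and 2 fell. Over all genes tested, 2.11% rose and 1.92% fell from ZT14 to ZT18, and 5.01% rose and 4.73% fell from ZT2 to ZT6.

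Over the 6 samplings, the position of ZT6 differed between genes. Of the 902 genes higher at ZT6 than at ZT2, 435 (48.2%) had their highest mean at ZT6 and 407 (45.1%) at ZT10, against 18.2% and 18.7% of all genes tested. Of the 852 lower genes, 335 (39.3%) had their lowest mean at ZT6 and 431 (50.6%) at ZT10, against 19.0% and 19.3% of all genes tested. A gene chosen for being higher at ZT6 cannot peak at ZT2, so these shares partly follow from the choice. *Nr1d1*, *Bhlhe41*, *Trib3* and *Fgf21* had their highest mean at ZT6 and *Dbp*, *Per3*, *Ciart*, *Tef* and *Nr1d2* at ZT10, whereas *Per2*, which had not passed the test by ZT6, had it at ZT14. *Cry1*, *Ppard* and *Ddit4* were lowest at ZT6, *Arntl*, *Nfil3* and *Pdk4* at ZT10 and *Npas2* at ZT14. These positions rest on means of 6 libraries and were not tested.

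**Figure D5:**
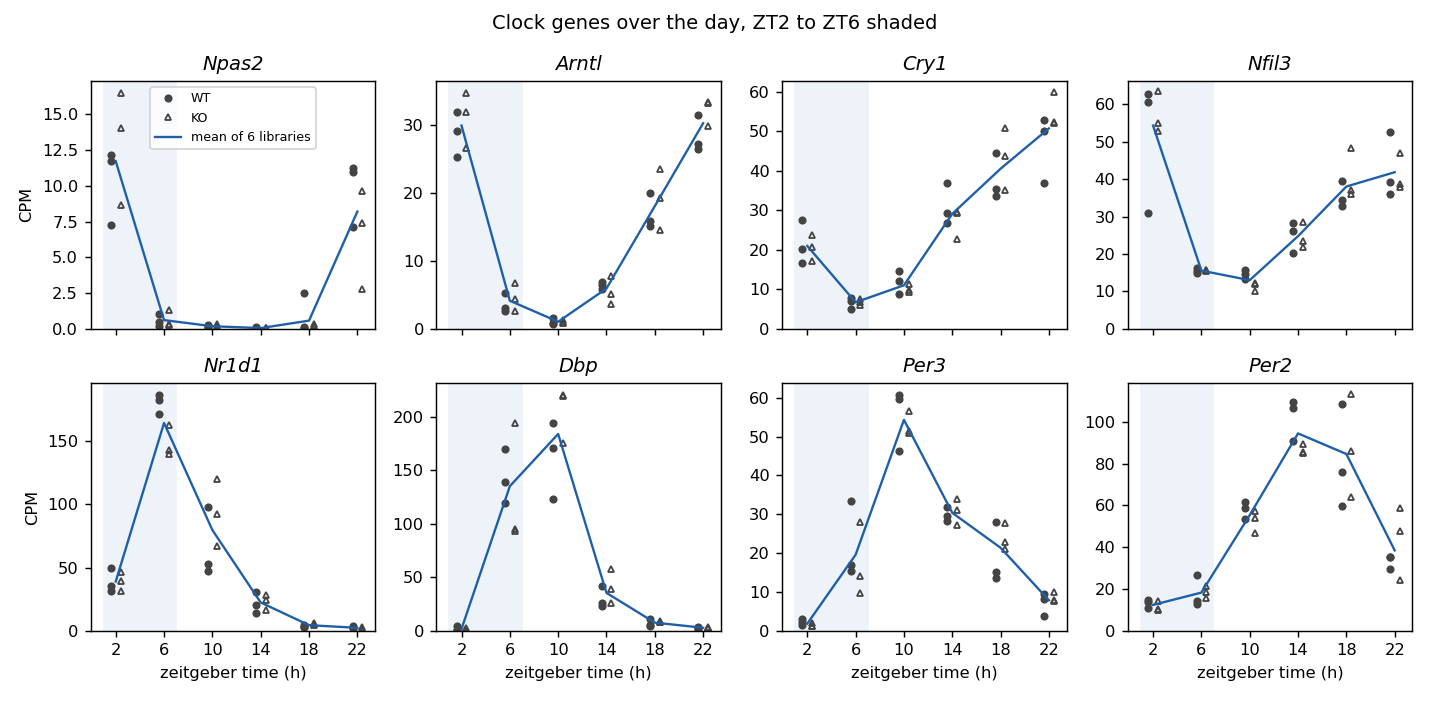
CPM (linear axes) of 8 clock genes against zeitgeber time in h, with filled circles for THRB WT libraries, open triangles for THRB KO libraries, a blue line through the mean of the 6 libraries of each time and shading around ZT2 to ZT6. *Npas2*, *Arntl*, *Cry1* and *Nfil3* drop within the shaded interval, *Nr1d1* has its highest mean at ZT6, *Dbp* and *Per3* at ZT10 and *Per2* at ZT14.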

How the data were processed

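Liver RNA (poly-A selected, non-directional, paired-end) of 36 mice was sequenced. The authors aligned reads to mm10 with HISAT2 and deposited raw gene counts from featureCounts, while versions, annotation and strand setting are not given in the sources used here. The 12 libraries of ZT2 and ZT6 were grouped by their titles. Genes with at least 100 counts over the 36 libraries were scaled by TMM and fitted with genotype and time in edgeR 4.0.16 (R 4.3.3, quasi-likelihood test, Benjamini-Hochberg threshold 0.05). CPM use TMM over the 36 libraries, and the test TMM over the 12. The genotype by time term was tested on the same 12 libraries, and the difference from the early dark step in a fit of all 36 libraries with genotype and 6 times. Fits were tested on simulated data drawn independently for each library, without effects of letter or number series, so the simulation does not cover such effects. DESeq2 1.42.0 served as an alternative.

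Counts limit precision by sampling error, and p-values measure the spread between mice. The gene lists, members and tests were chosen with earlier results of these data known. Genes were named by a rule: the 12 largest changes each way among called genes with no overlap and a mean of at least 50 counts, all clock list members, up to 4 called members of each other list plus uncalled ones needed to describe it, genes the study names, and the 5 of smallest adjusted p in each of the other tests. Genes further down a list (*Hspa5*, *Herpud1*, *Stip1*, *Ppara*) were named after their values were seen. Without strand, genes overlapping on opposite strands cannot be separated: 58 of 180 named genes share exon bases with such a gene, and 4 share over 20%. Some genes that the rule names are not reported here.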

Additional observations from a re-analysis of the deposited data

Results flagged for a closer look

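In 146 groups of 6 libraries, 1 library stood apart from the other 5 by Dixon's test in 12, and chance flags about 1 in 20 groups. At ZT2, replicate b of the KO group had 20.39 CPM of *Per1* (others 2.02 to 8.21), 30.31 CPM of *Ddit4*, a glucocorticoid-responsive mTOR inhibitor (others 14.02 to 19.84), and the lowest sum of pericentral markers, 6187 CPM (others 7057 to 7504). Replicate a of the WT group had 31.03 CPM of *Nfil3* (others 52.99 to 63.57) and replicate b 11.85 CPM of *Sox9* (others 7.12 to 8.66).

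At ZT6, replicate b of the WT group had 1263 CPM of *Cyp2a5* (others 335.2 to 668), 5427 CPM of *Cyp2e1* (others 5938 to 6100) and 70.92 CPM of summed cholangiocyte markers (others 37.82 to 44.9). Replicate c had 492.1 CPM of *Insig1* (others 259.5 to 335.1). Among KO livers, replicate a had 689.9 CPM of summed Kupffer cell markers (others 464.1 to 536.2), replicate b 1047 CPM of *Pck1* (others 2158 to 2546) and replicate c 1818 CPM of *Bhmt* (others 1098 to 1289).

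The early light and early dark steps differed, with adjusted p among the smallest, for *Dbp* (8.55 on the log2 scale, light minus dark), *Tef* (2.97), *Arntl* (-4.47) and *Nr1d1* (4.42).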

How the results depend on the processing

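The count of 1754 genes stayed within 1.5 times, from 1514 to 2376, under DESeq2 (2376), DESeq2 size factors (1775), no filter (1719), filterByExpr (1846), all 36 libraries (2193), no TMM factors (1732) and robust spread (1763). With the letter of the title as a replicate block it was 1961, and with genotype and letter as 6 pairs 1514. The letters were not taken to pair the libraries, since deviations of same-letter libraries of different times correlated between -0.19 and 0.381. Within a time, same-letter libraries of the 2 genotypes correlated between 0.099 and 0.384, and the 6 pairs of letter a between 0.118 and 0.384, but replicate b of the KO group at ZT2 correlated best with a library of letter c (0.312). Fewer libraries gave fewer calls: 314 in THRB WT alone, 117 higher and 128 lower (2.5e+02 in all) in THRB KO alone, 198 in the 6 libraries of 1 number series of the labels, and 646 to 1703 when 1 library or 1 letter at both times was left out. Of these, the lowest with 1 library less was 1244, without replicate a of the KO group at ZT6. The number series was unbalanced between ZT2 and ZT6, as only the series fitted alone occurred at both times. That series had fewer libraries at ZT2 than at ZT6, and no library of letter a belonged to it. For the other series, time and series cannot be separated. The part of the series in these counts was not tested. At least 2-fold change held for 267. The genotype term gave 0 calls, also with the replicate block, but 3 in DESeq2 (*Cdh1*, *Cyp2c40* and *Cyp2c69*) and 2 with no filter, and the cause was not tested. Of 138 called named genes, 115 kept the call without any 1 library and none changed direction. Fits with fewer libraries lost more of these 138 calls. THRB WT alone lost 73 and THRB KO alone 78. Without letter a, b or c at both times, 45, 31 and 51 were lost. With the letter block *Per1* was not called (adjusted p = 0.0564), while *Alas1* (0.00735), *Fasn* (0.00562), *Acly* (0.0185) and *Sqle* (0.0447) were. Of 42 named genes that were not called, 13 were called under at least 1 alternative. Among them *Per2* had an adjusted p of 0.0121 in DESeq2, 0.0128 with no filter and 0.0379 with all 36 libraries. Leaving out 1 library moved the number of called members between 14 and 17 for the UPR, 5 and 9 for heat shock, 6 and 13 for PPAR alpha targets and 0 and 4 for endothelial markers. Depth limits genes of a few CPM, such as *Slc34a2* at ZT6.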

Other observations

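Several abundant metabolic genes outside the lists also changed, and they were chosen after their values were seen. *Hsd17b6*, an enzyme of androgen metabolism, went from a mean of 137 to 401 CPM (log2 fold change 1.58, edgeR adjusted p = 0.0007), *Upp2*, a uridine phosphorylase, from 114 to 315 CPM (1.46, edgeR adjusted p = 0.0012) and the mitochondrial carrier *Slc25a47* from 288 to 659 CPM (1.20, edgeR adjusted p = 0.00111). *Arrdc3*, an arrestin-like adaptor, rose from 67.7 to 177 CPM (1.38, edgeR adjusted p = 0.00033). In the other direction, the tubulin gene *Tubb2a* went from 174 to 48.2 CPM (-1.86, edgeR adjusted p = 0.00013), like *Tubb2b* above, and the nuclear receptor coactivator *Pnrc1* from 119 to 46.6 CPM (-1.35, edgeR adjusted p = 3e-06).

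Of 1009 transcription factor genes tested, 59 rose and 42 fell (10%), a share near that of all genes. Outside the clock they included *Klf13* (1.01), *Smad9*, a factor of BMP signalling (0.95), and the mineralocorticoid receptor *Nr3c2* (0.66) among the rises, and *Zbtb21* (-1.23), *Mitf* (-0.87) and the oestrogen receptor *Esr1* (-0.81) among the falls.

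*Cebpe*, a transcription factor of granulocytes, was present or nearly absent in single livers. At ZT2, 3 of 6 libraries had 5.59 to 7.85 CPM and the other 3 at most 0.0587, and all 6 at ZT6 were at 0. Over all 36 libraries, 14 had 3.22 to 9.98 CPM and 22 at most 0.0682. The call between the times was lost in 8 of the 12 fits without 1 library (edgeR adjusted p up to 0.0834). Neutrophil and monocyte markers summed to 3.44 to 7.34 CPM at ZT2 and 3.77 to 5.59 CPM at ZT6, and their part in this pattern was not tested. The pattern was also uneven between genotypes at some times. At ZT22 the KO libraries had 5.30 to 9.98 CPM and the WT libraries 0.0 CPM. At ZT18 the KO libraries had 4.39 to 4.99 CPM and the WT libraries 0.0 to 3.90 CPM. At ZT10 the WT libraries had 8.30, 8.11 and 0.0 CPM and the KO libraries 7.93, 0.0 and 0.0 CPM. The part of genotype was not tested.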
